A study of Homo sapiens with 6 samples.

Results

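The genes described here are p53 target genes in KM12 cells, a cultured human colorectal cancer line, read by RNA sequencing. They are 30 symbols listed as well-known targets or feedback partners of the transcription factor p53, and 29 of them matched a row among the 27134 genes of the deposited table by Ensembl identifier; SPATA18, a mitochondrial quality control gene, was not analysed here. The study set 3 libraries of KM12 cells made to overexpress CDO1 against 3 of KM12 mock control cells, all labelled with passages 10 to 15. CDO1 is the enzyme cysteine dioxygenase, which turns cysteine into cysteine sulfinate. The labels name no vector, promoter or clone. They also leave it unsaid whether libraries of a group stem from different cultures, so the p-values below rest on the spread between these libraries, which could be technical.

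Whole reads recovered from the table came to between 17516640 and 22198173 per library. With overexpression, CDO1 itself stood at 2484, 2336 and 2333 normalised counts, that is, reads divided by a size factor per library. Mock replicate 1 had 68.1 and the other mock libraries had 0. A count of 0 allows up to 3 reads, for counting error only. Colon epithelial markers were plentiful in both groups, with a summed level of 194259 to 208055 normalised counts over 9 genes in the CDO1 libraries and 144605 to 153135 in mock, and 8 of the 9 rose. Of 7 fibroblast, 5 endothelial and 5 blood cell markers, 2, 5 and 2 were in the table; their sums were 130 to 151, 121 to 135 and 6.43 to 12.0 with CDO1, and 204 to 293, 61.1 to 174 and 1.95 to 17.0 in mock. The part of these shifts in the results below was not tested. In bulk RNA, fewer cells of a kind and less RNA per cell cannot be told apart.

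p53 is held at a low level by MDM2, which tags it for degradation, and by MDM4, which blocks its activity. When DNA damage, oncogene signals or metabolic stress free it from them, p53 raises genes that stop the cell cycle, trigger apoptosis, repair DNA or adjust metabolism and redox balance, and it raises MDM2 itself, closing a feedback loop. An RNA level of a target does not measure p53 protein or its activity, and most of these targets also respond to other factors.

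In cells with CDO1, 12 of the 29 measured p53 target genes fell, 5 rose and 12 did not pass an adjusted p of 0.05 in limma, the test behind every adjusted p given here unless another source is named. Across all 21775 genes tested 24.0% passed, 12.7% lower and 11.3% higher, against 41.4% of the targets lower and 17.2% higher. All 29 targets had a mean of at least 100 normalised counts, and among the 10941 tested genes at or above that level 16.7% were lower and 19.6% higher. The median log2 fold change was -0.09 over the targets and 0.00 over all genes tested. The largest fall was that of PHLDA3, an inhibitor of AKT signalling, and then came TP53INP1, a p53 partner in apoptosis and autophagy, the cell cycle inhibitor CDKN1A and the mitochondrial reductase FDXR. Rises were smaller. PERP, a desmosomal and pro-apoptotic membrane protein, rose most, and a change of at least 1.5-fold was seen in 6 targets, all of them falls.

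**Figure D1:**
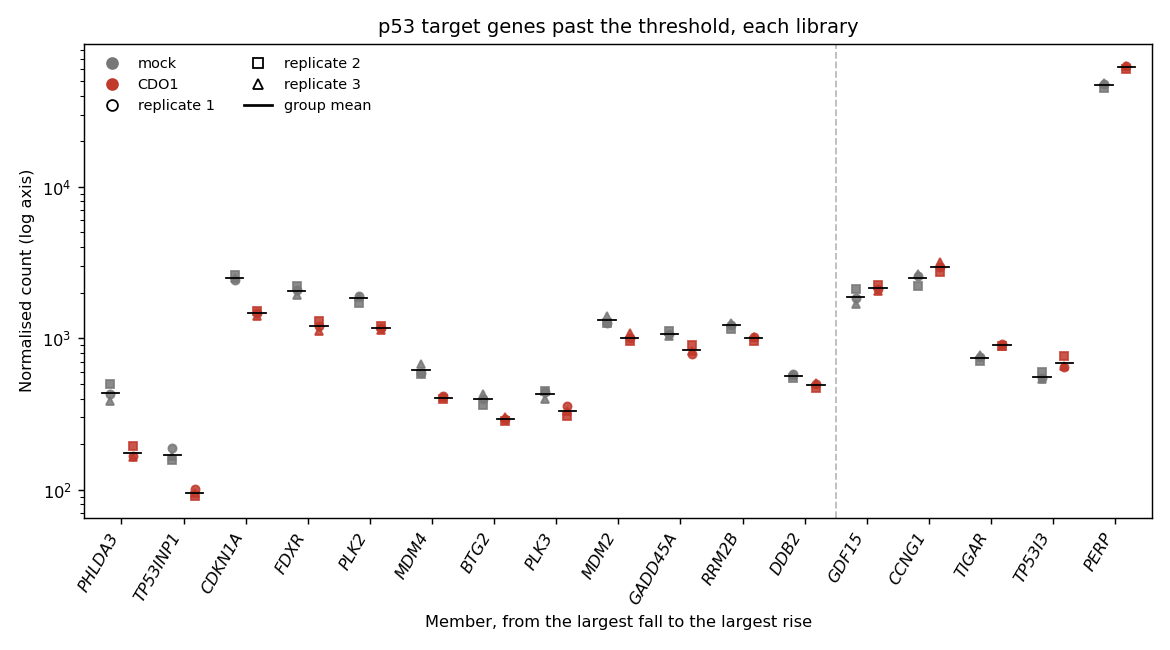
Normalised count on a log axis for the 17 p53 target genes past the threshold, from the largest fall to the largest rise, where points are single libraries (mock in grey, CDO1 in red, shapes for replicates 1 to 3) with a black line at each group's mean; genes left of the dashed line were lower with CDO1. PHLDA3 lies at 164 to 194 with CDO1 and at 384 to 499 in mock, and GDF15 is the one gene whose groups overlap.

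The stretch of 250 bases before the RefSeq start is shown for the targets with the largest falls and rises that have an entry in the RefSeq promoter table, since p53 acts by binding DNA. The table holds 24 of the 29 targets (GRCh38.p14); PHLDA3, GADD45A, TP53INP1, RRM2B and TNFRSF10B are without one. Each sequence was searched for the p53 half-site consensus of 10 bases, which reads the same on both strands, and for a pair of them at most 13 bases apart with the core CNNG intact and at most 2 mismatches in all. Capitals mark what was found.
CDKN1A, chr6:36678464-36678713, plus strand: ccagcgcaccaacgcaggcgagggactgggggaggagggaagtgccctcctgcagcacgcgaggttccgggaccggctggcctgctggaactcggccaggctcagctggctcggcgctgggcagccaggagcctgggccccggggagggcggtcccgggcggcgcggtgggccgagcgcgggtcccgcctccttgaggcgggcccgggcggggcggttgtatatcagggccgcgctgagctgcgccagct
FDXR, chr17:74872995-74873244, minus strand: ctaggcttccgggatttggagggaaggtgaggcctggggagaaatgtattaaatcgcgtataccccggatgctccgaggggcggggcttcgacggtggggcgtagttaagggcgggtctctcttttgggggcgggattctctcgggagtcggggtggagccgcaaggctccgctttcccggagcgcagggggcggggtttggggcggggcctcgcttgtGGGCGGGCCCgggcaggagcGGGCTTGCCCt
PLK2, chr5:58460087-58460336, minus strand: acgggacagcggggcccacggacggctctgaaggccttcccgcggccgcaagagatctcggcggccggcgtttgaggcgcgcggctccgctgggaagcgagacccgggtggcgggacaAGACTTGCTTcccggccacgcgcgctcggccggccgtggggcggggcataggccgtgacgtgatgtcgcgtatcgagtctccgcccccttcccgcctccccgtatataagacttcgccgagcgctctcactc
PERP, chr6:138107420-138107669, minus strand: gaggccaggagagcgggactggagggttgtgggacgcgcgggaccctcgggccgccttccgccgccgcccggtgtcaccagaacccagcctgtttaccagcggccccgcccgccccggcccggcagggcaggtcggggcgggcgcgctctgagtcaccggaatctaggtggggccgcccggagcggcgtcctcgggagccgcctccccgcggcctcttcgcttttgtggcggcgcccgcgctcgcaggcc
TP53I3, chr2:24084835-24085084, minus strand: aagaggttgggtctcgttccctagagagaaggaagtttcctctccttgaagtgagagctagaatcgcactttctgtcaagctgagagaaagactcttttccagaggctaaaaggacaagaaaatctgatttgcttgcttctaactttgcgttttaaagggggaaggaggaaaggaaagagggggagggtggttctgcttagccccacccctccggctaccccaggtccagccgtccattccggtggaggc

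An exact half-site lay within these 250 bases in 3 of the 24 targets, FDXR, PLK2 and AEN, which is 12.5%, against 5.57% of 35114 promoters of the same length. Each target was read at its first listed start only, whereas the 35114 count every entry with a full sequence. The paired form was found in 2 of the 24, FDXR and AEN, against 2.49% of all promoters. In FDXR the pair began 31 bases before the start with a gap of 10 bases, and its second decamer was the exact match. The half-site of PLK2 began 132 bases before the start. AEN, whose pair began 34 bases before the start with no gap, did not pass the expression test. No match was found in the stretches of CDKN1A, PERP and TP53I3. The sites known for CDKN1A lie further upstream, outside the bases searched, and its RefSeq start is one of several starts of the gene. A match is a run of letters and not a measured binding site.

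The feedback partners moved in both directions. MDM2, the ubiquitin ligase for p53 (ENSG00000135679, GRCh38 chromosome 12, 68808176 to 68850686), gave 998, 957 and 1076 normalised counts with CDO1 against 1258, 1264 and 1412 in mock. The highest CDO1 library lay below the lowest mock library, and the log2 fold change was -0.38 ± 0.07 (SE; adjusted p = 0.000201). MDM4, the related inhibitor that lacks ligase activity of its own (ENSG00000198625, chromosome 1, 204516379 to 204558120), read 413, 399 and 407 with CDO1 and 594, 579 and 675 in mock. Its 3 CDO1 libraries differed by little and all sat far under mock, a 1.52-fold fall (log2 fold change -0.60 ± 0.08, SE; adjusted p = 5.09e-06). CCNG1, the cyclin G1 that brings a phosphatase to MDM2, went the other way, with 2963, 2742 and 3173 against 2564, 2216 and 2663. Its groups did not overlap, though CDO1 replicate 2 and mock replicate 3 lay close, and it rose 1.19-fold (adjusted p = 0.00787), a call that ended without CDO1 replicate 3 (adjusted p = 0.0775).

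Of the 7 genes for cell cycle arrest and growth control, 5 fell and none rose. CDKN1A encodes p21, the inhibitor of cyclin-dependent kinases through which p53 halts the cycle (ENSG00000124762, chromosome 6, 36676460 to 36687339). It stood at 1467, 1515 and 1398 normalised counts with CDO1 and at 2425, 2618 and 2492 in mock. Both groups were tight and far apart, and the log2 fold change was -0.78 ± 0.06 (SE; adjusted p = 1.63e-09). PLK2, a polo-like kinase of the stress response (ENSG00000145632, chromosome 5, 58453982 to 58460260), read 1169, 1198 and 1129 against 1911, 1715 and 1882. This was a 1.58-fold fall (adjusted p = 5.34e-08). Its relative PLK3 read 359, 307 and 329 against 443, 452 and 397, a 1.30-fold fall with no overlap (adjusted p = 0.0024).

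BTG2, an antiproliferative cofactor of mRNA decay (ENSG00000159388, chromosome 1, 203305491 to 203309602), was at 295, 285 and 302 normalised counts with CDO1 and at 394, 363 and 431 in mock. It fell 1.35-fold (adjusted p = 0.000806). GADD45A, a stress sensor that binds PCNA and p21, read 787, 899 and 823 against 1065, 1118 and 1032, and fell 1.28-fold (adjusted p = 0.000337). In both genes every CDO1 library was below every mock library. The remaining pair of this role did not pass and their groups overlapped. FBXW7, which marks cyclin E for degradation, had means of 524 and 525 normalised counts with CDO1 and in mock, and a log2 fold change with a 95% interval of -0.16 to 0.16. ZMAT3, an RNA-binding splicing regulator, had means of 438 and 450 (449.6 before rounding) and an interval of -0.19 to 0.11.

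Among the 10 measured genes of death and survival, 2 fell, 2 rose and 6 did not pass. PHLDA3 competes with AKT for membrane lipids and so restrains a survival signal (ENSG00000174307, chromosome 1, 201464383 to 201469237). It was at 168, 194 and 164 normalised counts with CDO1 and at 426, 499 and 384 in mock. Even the lowest mock library was far above the highest CDO1 library, and the log2 fold change of -1.31 ± 0.10 (SE; adjusted p = 7.98e-09) was the largest of all 29. TP53INP1 (ENSG00000164938) was the scarcest target per length, at 23.5 normalised counts per kb of exon, and read 102, 90.9 and 94.6 against 187, 158 and 166. It fell 1.78-fold (log2 fold change -0.83 ± 0.12, SE; adjusted p = 2.95e-05).

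PERP (ENSG00000112378, chromosome 6, 138088505 to 138107511) was the most abundant target per length, at 12719 normalised counts per kb of exon, with GDF15 next at 965. The counts of PERP were 63197, 59878 and 62969 (62968.5) with CDO1 and 47594, 45096 and 48641 in mock. The groups lay well apart, and it rose 1.32-fold (log2 fold change 0.40 ± 0.05, SE; adjusted p = 1.19e-05). PERP is also a component of desmosomes. Of the 9 epithelial markers given above 8 rose as well, and a link to PERP was not tested. TP53I3, a quinone oxidoreductase linked to oxidative stress in apoptosis (ENSG00000115129, chromosome 2, 24077433 to 24085861), read 646, 761 and 657 against 545, 596 and 536. CDO1 replicate 2 was the high one, and the 1.23-fold rise (adjusted p = 0.00671) did not pass without it (adjusted p = 0.054).

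The genes of the core apoptosis machinery in the list gave no call. BAX, which opens the mitochondrial outer membrane, had means of 1730 ± 193 (1729.8) with CDO1 and 1779 ± 135 in mock (SD, n = 3), with a 95% interval of -0.19 to 0.11 on the log2 scale. BBC3, the BH3-only protein PUMA, was at 558, 598 and 614 against 553, 724 and 553. Mock replicate 2 was far above its 2 partners, and the interval was -0.22 to 0.15. Once each library's trend with GC content had been removed, BBC3, whose transcript is 69.7% GC, came out higher with CDO1 (log2 fold change 0.22, adjusted p = 0.0112), so its call depends on that step. The death receptor FAS read 230 (229.8), 235 and 213 against 193, 195 and 214, a log2 fold change of 0.17 (95% interval -0.03 to 0.38) and overlapping groups; 380 of its 4253 exon bases overlap ACTA2 on the other strand, which had a mean of 38 reads against 214.

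TNFRSF10B, the TRAIL receptor DR5, was at 2779.7, 2723 and 2772 with CDO1 and at 2891, 2892 and 2884 in mock. Its groups did not overlap, yet the change was small and did not pass (log2 fold change -0.07, adjusted p = 0.376). AEN, an apoptosis-enhancing nuclease, had means of 1589.7 and 1701, and TRIAP1, a small inhibitor of apoptosis, 754 and 758, both with overlapping groups.

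Of 4 DNA repair genes, 2 fell and 2 did not pass. RRM2B, the p53-inducible subunit of ribonucleotide reductase that supplies nucleotides for repair (ENSG00000048392), read 1022, 962 and 1017 normalised counts with CDO1 and 1231, 1149 and 1267 in mock. It fell 1.22-fold with no overlap (adjusted p = 0.00171). DDB2, the sensor of ultraviolet damage (ENSG00000134574, chromosome 11, 47214465 to 47239240), was at 497, 469 and 505 against 579, 549 and 570.2. This 1.15-fold fall passed narrowly (adjusted p = 0.0363) and held in 9 of 16 other settings; in the authors' deposited table its adjusted p is 0.0862. XPC, which recognises distorted DNA, was higher in every CDO1 library, at 733, 743 and 728 against 704, 584 and 640.3, and missed the threshold (log2 fold change 0.20, adjusted p = 0.0552). Its call changed with the setting: it passed with a minimum mean of 10 (adjusted p = 0.0442), with the GC trend removed (0.0182), with the replicate number as a block (0.0329) and without mock replicate 1, the mock library with CDO1 reads (0.0269), and it did not pass in the other 12, where the adjusted p reached 0.214. It shares 318 exon bases with LSM3 on the other strand, a gene with a mean of 2338 reads, and the strand setting of the libraries is not stated. POLH, the polymerase that copies past damage, had means of 310 (310.4) and 354 and overlapping groups.

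The 5 genes of metabolism, redox and secreted signals gave 2 rises and 1 fall. FDXR, ferredoxin reductase, passes electrons to mitochondrial cytochromes and iron-sulfur assembly (ENSG00000161513, chromosome 17, 74862497 to 74873031). It was at 1202, 1307 and 1112 normalised counts with CDO1 and at 2074, 2198 and 1922 in mock. The groups were far apart, and it fell 1.71-fold (log2 fold change -0.77 ± 0.07, SE; adjusted p = 2.4e-08). TIGAR, which lowers glycolytic flux and favours NADPH supply (ENSG00000078237, chromosome 12, 4307763 to 4354593), read 921, 893 and 883 against 755, 704 and 772. All 3 CDO1 libraries were above all 3 mock libraries, a 1.21-fold rise (adjusted p = 0.00297).

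GDF15, a secreted stress cytokine, was at 2117, 2255 and 2066 against 1835, 2120.3 and 1689. Mock replicate 2 lay inside the CDO1 range, and the 1.14-fold rise passed narrowly (adjusted p = 0.0463). It passed in 6 of 16 other settings, with a log2 fold change of 0.20 that became 0.34 with the GC trend removed. The sestrins, which curb mTORC1 signalling under stress, did not pass. SESN1 had means of 186 and 179 and SESN2 of 424 and 477, with intervals of -0.16 to 0.27 and -0.34 to 0.00 on the log2 scale. Of the 16 other settings, SESN2 passed only without mock replicate 3 (log2 fold change -0.23, limma adjusted p = 0.0418).

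**Figure D2:**
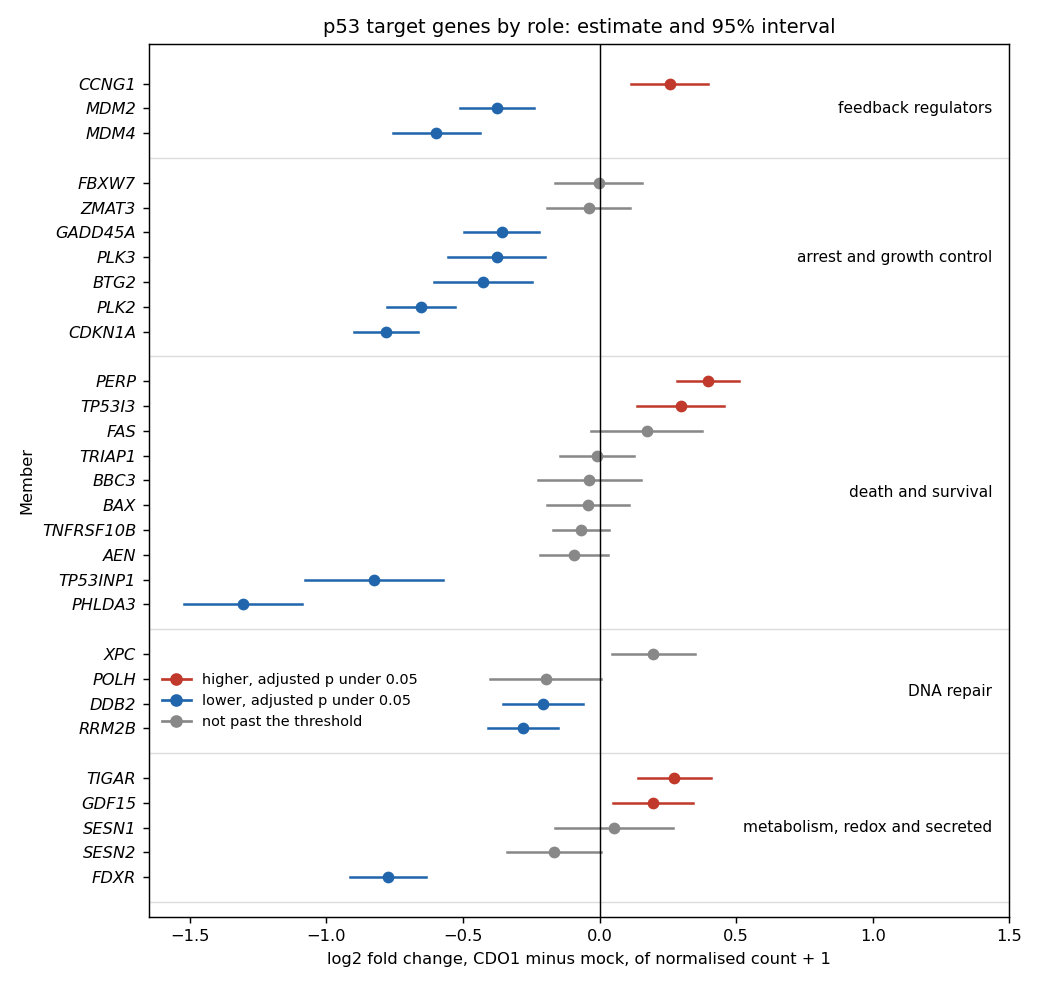
The 29 p53 target genes by role, each with its log2 fold change of CDO1 against mock (normalised count plus 1) and the 95% interval from limma; genes past the adjusted p of 0.05 are red where higher and blue where lower, and grey did not pass. None of the 7 genes of arrest and growth control lies to the right of 0, while the 10 death and survival genes run from -1.31 for PHLDA3 to 0.40 for PERP.

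By role, the median log2 fold change was -0.38 for the arrest genes, -0.04 for the death genes, -0.20 for the repair genes and 0.05 for the metabolic genes. The share that fell was 71.4%, 20% (2 of 10), 50% (2 of 4) and 20% (1 of 5), and the share that rose was 0%, 20%, 0% and 40%. Over all genes tested 12.7% were lower and 11.3% higher, and among those with a mean of at least 100, 16.7% and 19.6%. The values by role describe small sets, and the difference between roles was not tested. By groups that did not overlap, 13 of the 29 targets were lower and 5 higher in every CDO1 library, where all genes gave 18.9% and 18.3%. Of the 17 genes called, 13 passed under each of the 16 other settings run; the exceptions were CCNG1, TP53I3, DDB2 and GDF15. The number of rises dropped to 3 without CDO1 replicate 2 and without CDO1 replicate 3, and reached 7 with the GC trend removed. Without mock replicate 1, the library with CDO1 reads, 11 targets fell and 5 rose.

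In a wider list of 30 regulators of p53, 29 were tested, of which 3 fell, 3 rose and 23 did not pass. That is 10.3% in each direction, against 12.7% lower and 11.3% higher over all genes. With no overlap between groups 5 of the 29 were lower and 7 higher, where all genes gave 18.9% and 18.3%. The p53 relative TP63 was at 0 to 0.975 and was not tested. CDKN2A, whose products include ARF, the protein that sequesters MDM2, and the kinase inhibitor p16, was at 149, 169.7 and 180.0 with CDO1 and at 496, 582 and 484 in mock. It fell 3.13-fold (adjusted p = 1.42e-10); gene-level counts do not tell its products apart.

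The kinase HIPK2, which phosphorylates p53, fell 1.46-fold, from 2053 ± 71.9 to 1403 ± 50.7 normalised counts (SD, n = 3). TP73, another p53 relative, fell 1.41-fold, from 935 ± 132 to 661 ± 20.4. The 3 regulators that rose were the deubiquitinase USP28 (1.29-fold) and the damage kinases ATR (1.21-fold) and PRKDC (1.11-fold). With the GC trend removed 5 regulators were lower, and without mock replicate 3 the same number were higher.

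**Figure D3:**
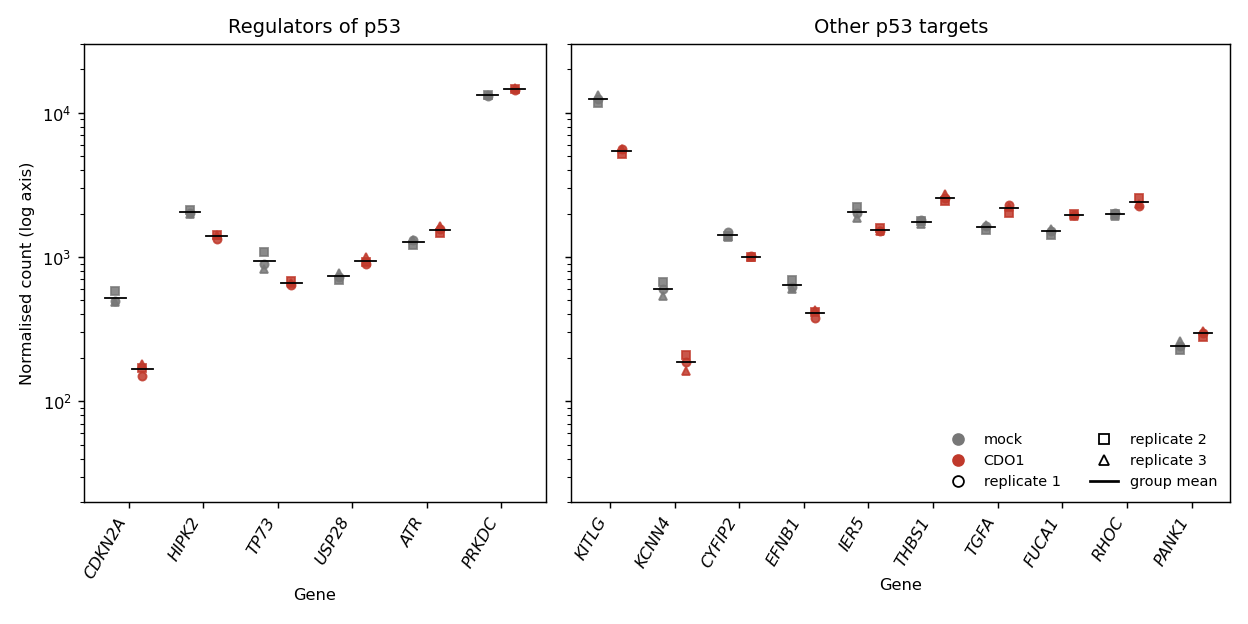
Normalised count on a log axis, one point per library with lines at group means, for the 6 regulators past the threshold (left) and for the 5 other p53 targets with the smallest p in each direction (right). CDKN2A lies at 149 to 180.0 with CDO1 against 484 to 582 in mock, and no gene drawn has overlapping groups.

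A further list of 56 genes described as p53 targets, none of them among the 30, was read from the same fit. In it 15 of the 55 tested fell, 5 rose and 35 did not pass. That is 27.3% lower and 9.09% higher, against 12.7% and 11.3% of all genes. Tested genes with a mean of at least 100 gave 16.7% and 19.6%, though some genes of the list lie below that level. EDA2R was below the filter. The median log2 fold change of the list was -0.08. With no overlap between groups 22 of its genes were lower and 9 higher, where all genes gave 18.9% and 18.3%. The smallest p belonged to KITLG, the ligand of the KIT receptor, at 5594, 5151 and 5597 normalised counts with CDO1 against 12389, 11622 (11622.5) and 13292 in mock, a 2.28-fold fall (adjusted p = 5.87e-12). KCNN4, a calcium-activated potassium channel, read 187, 209 and 162 against 601, 670.0 and 533, a 3.23-fold fall (adjusted p = 1.73e-10). The actin regulator CYFIP2 fell 1.42-fold, the ephrin EFNB1 1.56-fold and the immediate early gene IER5 1.32-fold.

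The rises of this list were led by THBS1, the matrix protein thrombospondin, 1.47-fold from 1761 ± 68.7 to 2586 ± 140 (140.01) normalised counts (SD, n = 3). TGFA, a ligand of the EGF receptor, rose 1.35-fold, the lysosomal fucosidase FUCA1 1.30-fold, the GTPase RHOC 1.21-fold and the pantothenate kinase PANK1 1.22-fold. With each library left out in turn, 12 to 15 genes of the list fell and 4 to 5 rose.

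Through p21 and the DREAM complex, p53 lowers many cell cycle genes. Of 40 such genes 5 were lower with CDO1, 3 higher and 32 did not pass, that is 12.5% lower and 7.5% higher. All genes gave 12.7% and 11.3%, and tested genes with a mean of at least 100, a level that all 40 reach, gave 16.7% and 19.6%. By groups that did not overlap, 11 of the 40 were higher and 5 lower in every CDO1 library, where all genes gave 18.3% and 18.9%. The median log2 fold change of the 40 was 0.03. CDT1, the replication licensing factor, fell 1.54-fold (adjusted p = 1.11e-07), and BIRC5, the apoptosis inhibitor survivin, 1.18-fold. CENPF, LMNB1 and CDC20 fell by less, and TOP2A, MCM6 and CDC25A rose 1.15-, 1.14- and 1.15-fold. These counts moved with the setting: 6 rose with the GC trend removed, 5 without mock replicate 3 and 1 without CDO1 replicate 3, and 3 fell without CDO1 replicate 1, CDO1 replicate 3 or mock replicate 1.

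**Figure D4:**
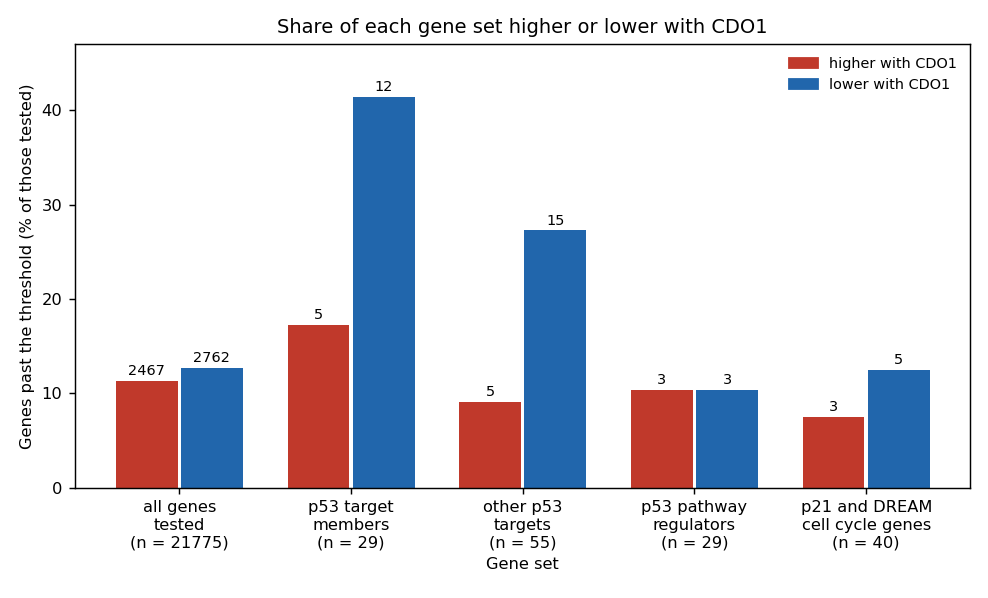
Share of the genes tested in each set drawn red where higher and blue where lower with CDO1 (limma, adjusted p under 0.05), with the number of genes above each bar and the set's size under it. The p53 targets reach 41.4% lower and the other p53 targets 27.3%, against 12.7% of all genes, while the regulators and the p21 and DREAM genes stand at 10.3% and 12.5%. Not drawn are the tested genes with a mean of at least 100, of which 16.7% were lower and 19.6% higher.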

How the data were processed

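RNA from 6 libraries of KM12 cells was read at gene level in one deposited table. Its signal columns hold, as deposited, gene counts scaled by one factor per library: each library's smallest step, refined over low values, was taken as 1 read, and 100% of values were then whole to within 0.001. edgeR on those reads called 2628 genes higher and 2795 lower. Per the submitters' processing notes the tools were STAR 2.5.1b and DESeq2 1.10.1 on GRCh38; for the counter, annotation release and strand setting, the answer is not given in the sources used here. Also deposited were a log2 fold change, p-value and adjusted p-value per gene from the authors' own comparison.

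Since the values are normalised, limma 3.58.1 (trend) was fitted across all genes with a mean of at least 1, on log2 of the normalised count plus 1, group as the only term, Benjamini-Hochberg over all genes at 0.05. Fold changes on this scale understate those of scarce genes; each fold quoted divides one group's mean normalised count by the other's. Computing used R 4.3.3; edgeR 4.0.16 and DESeq2 1.42.0 served as alternatives. Symbols came from a name table holding 26577 of the 27134 identifiers, positions, exon length and GC content (longest transcript) from GENCODE release 29. Promoters are RefSeq's.

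The fit was tested on simulated data. Members, lists and alternatives were chosen with earlier results of these data known. All members could be named; from the other lists, the up to 5 genes in each direction with the smallest p. The promoters were to be those of the 3 largest falls and 2 largest rises with a mean of at least 100; genes with no sequence in the table were passed over. The result for 1 further gene is not reported here.

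Alternatives were the filter (none, or a mean of 10), the pseudocount (0.5, 5), edgeR, DESeq2, the authors' adjusted p, scaling to equal totals, a lowess correction for GC content per library (span 0.3), the replicate number as a block, and each library left out.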

Additional observations from a re-analysis of the deposited data

How the results depend on the processing

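The number of targets lower with CDO1 stayed between 11 and 12 under the 16 alternatives, and the counts over all genes and over the other p53 targets lay within 1.5 times their reported value. With each library left out, and so fewer samples tested, targets that rose ran from 3 to 5, 3 being without CDO1 replicate 2 or 3. They came to 7 with the GC trend removed and to 6 with a minimum mean of 10. Over all genes the calls ran from 4002 to 5492 with a library left out. With equal library totals 2068 genes were higher and 3079 lower, and with the GC trend removed 3358 and 3034; the median over all genes moved to -0.03 and 0.01. Deviations of same-numbered libraries correlated at 0.01, 0.08 and 0.00, and those of differently numbered libraries at -0.06 to 0.04. These few values do not settle whether replicate numbers pair the samples. With the replicate block 6 targets rose and 12 fell, and 5918 genes were called against 5229 without it.

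Of 464 values for single targets, 426 kept direction and side of the threshold, 19 lost the call, 5 gained it and 14 changed sign. All sign changes were in genes not past the threshold: with a library left out FBXW7 ran from -0.059 to 0.037, BBC3 from -0.10 to 0.092, BAX from -0.13 to 0.018, TRIAP1 from -0.038 to 0.020 and SESN1 from -0.0015 to 0.10 in log2 fold change, and with the GC trend removed BBC3 was at 0.22 (past the threshold) and BAX at 0.036. The cause was not tested. With 3 libraries a group, the smallest change called among the targets was 1.14-fold.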
